A study of Homo sapiens with 6 samples.

Results

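The regions described here gained methylation from a control level that was already partial: they had a mean methylation level of at least 0.30 in the control library and a higher level in the matched DNMT3A-overexpressing library. They were chosen by those 2 measured levels from 3 deposited lists of differentially methylated regions, and 1113 of 4344 listed regions met the rule. Pair 1 gave 367 of 1483 listed regions, pair 2 gave 374 of 1433 and pair 3 gave 372 of 1428. Because the levels themselves chose the regions, every contrast of DNMT3A-overexpressing with control libraries below is a description without a test.

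Methylation came from reduced representation bisulfite sequencing, or RRBS, in which MspI cuts at CCGG and so enriches CpG-rich fragments, in HepG2 cells, a human hepatocellular carcinoma line. The 3 control libraries came from HepG2 cells that received a control lentivirus and are labelled wild type. The 3 libraries of the other group came from HepG2 cells that received a lentivirus for DNMT3A overexpression, so lentiviral infection is common to both groups. Each list compares 2 libraries that carry the same number, 1 of each group, called a pair here. The sources used here do not give the promoter or isoform of the transgene, the time after infection, or whether separate cultures were used, and the files hold no measurement of DNMT3A RNA or protein or of cell type markers.

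DNMT3A is a de novo DNA methyltransferase: it puts a methyl group on cytosines of CpG dinucleotides that carry none on either strand, while DNMT1 mainly copies existing methylation onto the new strand after replication. In mammalian genomes most CpGs outside CpG islands are methylated, CpG islands at active promoters are mostly free of methylation, and bodies of transcribed genes are usually methylated. A methylation level between these states is an average over molecules, alleles and neighbouring CpGs, and bulk sequencing cannot tell a mixture of fully methylated and unmethylated molecules from molecules that are each partly methylated.

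Member regions were short stretches rich in CpGs, and 3 of them met a RefSeq promoter window in all 3 pairs. Such a window runs from 250 bases before to 50 bases after an annotated transcript start, in build GRCh38.p14, and alternative starts inside a gene have windows of their own. The sequences below are the stretches common to the regions of all 3 pairs within their window, and for ADAMTS12, a secreted metalloprotease, the stretch common to pairs 1 and 3. They are shown because they are promoter-window sequence that gained methylation in more than 1 pair. The levels given further on were averaged over each list's own region, which reaches beyond the stretch in some pairs and equals it in others. All read 5′ to 3′ on the strand of the annotated transcript, and capitals mark the bases of CpG dinucleotides; a single capital at an end belongs to a CpG that the edge of the region cut.
BAIAP2, chr17:81083289-81083473, plus strand: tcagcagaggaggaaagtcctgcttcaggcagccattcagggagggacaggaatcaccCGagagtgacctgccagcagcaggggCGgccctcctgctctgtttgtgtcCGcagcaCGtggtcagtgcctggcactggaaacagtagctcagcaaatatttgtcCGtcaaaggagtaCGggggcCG
LOC105378604 within PRDM16, chr1:3323519-3323697, minus strand: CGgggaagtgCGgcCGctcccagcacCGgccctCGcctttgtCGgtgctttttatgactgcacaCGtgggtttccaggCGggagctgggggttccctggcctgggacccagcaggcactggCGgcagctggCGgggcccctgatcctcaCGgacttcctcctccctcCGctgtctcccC
GGACT, chr13:100533863-100533945, minus strand: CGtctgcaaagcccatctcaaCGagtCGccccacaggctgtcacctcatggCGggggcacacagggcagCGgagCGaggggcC
ADAMTS12, chr5:33892138-33892193, minus strand: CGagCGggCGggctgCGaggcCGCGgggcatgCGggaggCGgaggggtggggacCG
The BAIAP2 stretch of 185 bp holds 7 CpGs and the GGACT stretch of 83 bp also holds 7, counting the one cut at its edge, so these are sparser than the ADAMTS12 stretch, where 56 bp hold 9. At GGACT (chr13:100533862-100534021), which encodes gamma-glutamylamine cyclotransferase, controls measured 0.427, 0.388 and 0.410 and overexpressing libraries 0.651, 0.720 and 0.651. The groups did not overlap. Only in pair 2 did the listed region span this whole interval, while in pairs 1 and 3 it was the printed stretch. The stretch at LOC105378604, a long noncoding RNA gene that overlaps PRDM16, holds 13 CpGs in 179 bp on the same count. The windows also showed how the lists count CpGs. Every one of 226 region starts and 205 region ends that fell inside a window lay on a C or G of a CpG. The deposited number of CpGs exceeded the CpG dinucleotides in the sequence in 118 of 123 regions lying wholly inside a window, and in none of the 123 did it exceed the cytosines of CpGs on both strands. In 78 of the 123 it equalled those cytosines, and in the rest it was lower. The number is therefore called CpG cytosines here, counted on both strands, of which it can miss some.

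In all 3 pairs the member regions rose from a median control level near 0.43 to a median above 0.72. Median control levels were 0.425, 0.425 and 0.427 in pairs 1, 2 and 3, and median levels after DNMT3A overexpression were 0.732, 0.723 and 0.723. The median difference of levels was 0.261, 0.268 and 0.263 per pair, and 0.264 over all 1113 regions with quartiles of 0.214 and 0.322. The 3 lists thus had nearly the same medians. Gains from control levels under 0.30 in the same lists had median differences of 0.267, 0.265 and 0.267, so the absolute gain was of the same size while the starting level, 0.123, 0.118 and 0.130, was the value the rule had set apart.

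Gains made up 82.1% of the listed regions in pair 1, 81.7% in pair 2 and 81.1% in pair 3. Among listed regions with a control level of at least 0.30 the share was lower, at 60.8%, 61.4% and 61.1%, and 709 of the 798 listed losses also started there. Member regions were 31.4% of all gains. Only listed regions can be counted, so nothing can be said of partly methylated regions that entered no list.

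**Figure D1:**
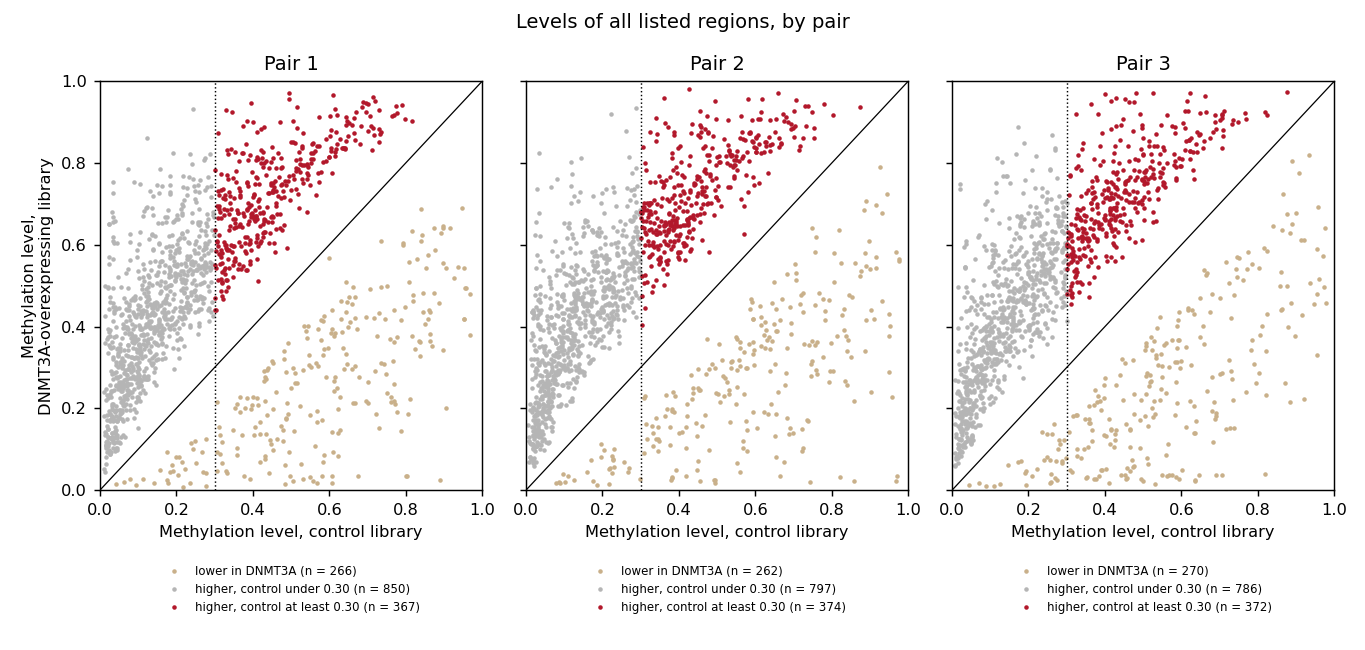
Methylation level of every listed region in the control library (x axis, fraction) and in the DNMT3A-overexpressing library of the same pair (y axis, fraction), with 1 panel per pair. Red points are the 367, 374 and 372 regions that met the rule, to the right of the dotted line at 0.30 and above the diagonal of equal levels; grey points are gains from lower control levels and tan points are losses.

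Among members, the median difference was smaller in each higher interval of the control level. Gains from lower control levels did not continue this order, with medians of 0.210 below 0.1, 0.293 at 0.1 to 0.2 and 0.295 at 0.2 to 0.3. Regions with a control level of 0.3 to 0.4 (446 regions) had a median difference of 0.286, and the difference fell through 0.272 at 0.4 to 0.5 (340 regions) and 0.254 at 0.5 to 0.6 (167 regions) to 0.225 at 0.6 to 0.7 (108 regions) and 0.155 above 0.7 (52 regions). A level cannot pass 1, so the difference was also expressed as a share of the unmethylated remainder, which is 1 minus the control level. On that scale the same intervals had medians of 44.6%, 50.3%, 55.5%, 62.1% and 61.5%, while gains starting below 0.1 had covered 22.3% of their remainder. These are levels at called regions, where a small remainder must be filled to a larger share to give a difference that is called; what the caller contributes to this order was not tested.

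Most members crossed a level of 0.50. Of the 1113 regions, 764 (68.6%) were below 0.50 in the control and at or above it after DNMT3A overexpression, 327 (29.4%) were at or above 0.50 already, and 22 stayed below it. A level of at least 0.80 was reached in 351 regions (31.5%), with 120, 126 and 105 of them in pairs 1, 2 and 3. In 593 regions (53.3%) the gain covered at least 50% of the unmethylated remainder.

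**Figure D2:**
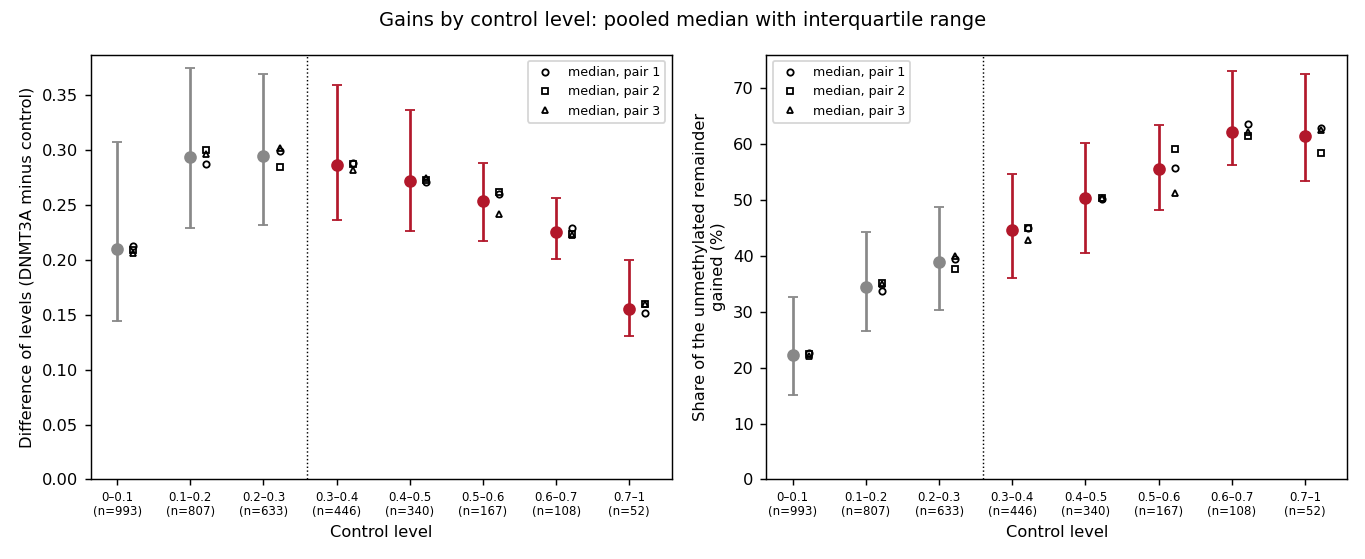
Difference of methylation levels (left, fraction) and the same difference as a share of the unmethylated remainder (right, percent) for all gains, in intervals of the control level (x axis, with the number of regions). Filled points are pooled medians with bars from the lower to the upper quartile, red for regions that met the rule, and small open symbols are the medians of the 3 pairs; above a control level of 0.3 the left medians fall from 0.286 to 0.155 and the right ones lie between 44.6% and 62.1%.

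The largest single gains ended near full methylation. In pair 1 an intergenic region at chr5:173229795-173229943 went from 0.331 to 0.930, and a region in the noncoding RNA gene LINC02008 at chr3:82337602-82337705 went from 0.347 to 0.924. In pair 2 a region in PRKCB, a protein kinase C gene, at chr16:23908721-23908810 went from 0.362 to 0.958. Another of pair 2, in LMF1, a lipase maturation factor of the endoplasmic reticulum, at chr16:878440-878624 went from 0.339 to 0.909. The corresponding regions of pair 3 were intergenic at chr4:151075526-151075580, from 0.326 to 0.919, and in PABIR3 at chrX:134842334-134842435, from 0.364 to 0.943. Of these 6 regions only the LMF1 one was listed as a gain in another pair, where it started below the threshold (0.233 in control 1, 0.766 in its overexpressing partner). These extremes rest on 4 to 13 CpG cytosines each.

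At the other end stood regions that were nearly full beforehand. The highest control levels were 0.877 in IDE, the insulin-degrading protease gene (chr10:92555896-92556001, 0.973 after overexpression, pair 3), 0.873 in an intergenic region at chr17:81966195-81966277 (0.936, pair 2) and 0.822 at TMEM271 (chr4:574851-574915, 0.917, pair 3). The smallest difference of any member, 0.0582, was at the potassium channel gene KCNG2 (chr18:79798310-79798609, 0.569 and 0.627, pair 2). At the threshold itself, the 3 members with the lowest control levels were at FAM210A, SP9 and SIT1, with 0.30, 0.30013 and 0.30018 against 0.575, 0.441 and 0.601 after overexpression. Just outside it were gains at SECTM1, at an intergenic region chr2:43187020-43187146 and at AMBRA1, with 0.29972, 0.29963 and 0.29936 against 0.414, 0.703 and 0.647.

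A partial level can also be an average over stretches that differ. Members were short, with a median length of 101 bp, and 4 of them were longer than 500 bp. The longest, 4150 bp in an intergenic part of chromosome 8 in pair 3, held 24 CpG cytosines and went from 0.327 to 0.674. In pair 1 the list held its 2 ends separately, a stretch of 96 bp that went from 0.523 to 0.777 and one of 85 bp that went from 0.0968 to 0.571. The second stretch was also listed in pair 2, from 0.115 to 0.444, as a gain from a lower control level. The single value of pair 3 thus covered a partly methylated and a nearly unmethylated stretch of the control genome as pair 1 measured them.

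Most members were listed in a single pair. Merging overlapping regions of different lists gave 935 distinct regions with at least 1 member. Of these, 33 (3.53%) met the rule in all 3 pairs, 108 (11.6%) in exactly 2 and 794 (84.9%) in 1. Among the 794, another list held no region at 729, a gain from a lower control level and no loss at 43, and a loss at 22. Counted by listing alone, 70 (7.49%) of the 935 were listed in all 3 pairs, and 65 (6.95%) were higher in each. Regions made only of gains from control levels under 0.30 numbered 1646, of which 199 (12.1%) were listed in all 3 pairs. The 2 sets are not fully alike, since the 935 include regions where a member meets another kind of listed region.

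Looked up list by list, between 22.1% and 26.2% of the members of a pair overlapped a region of any one other list, and 16.4% to 19.9% overlapped a member there. Gains from lower control levels were found in another list more often, at 35.9% to 42.4%. The share met by a gain of at least 1 of the other lists was 31.6%, 34.2% and 31.5% of members against 49.8%, 48.6% and 49.9% of the other gains in pairs 1, 2 and 3. Members were lower in all 3 pairs, by 17.0 ± 2.29 percentage points (SD, n = 3 pairs; exact two-sided sign-flip permutation test over pairs, p = 0.25, the smallest p that 3 pairs allow; adjusted p = 0.438 over 7 differences tested). An overlap between 2 lists counts in the shares of both, so the 3 shares are not independent of each other. Their SD and p-value treat them as if they were. This comparison cannot reach a threshold of 0.05, and the reads behind each region, which could differ between the 2 kinds of gain, are not given in the lists.

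**Figure D3:**
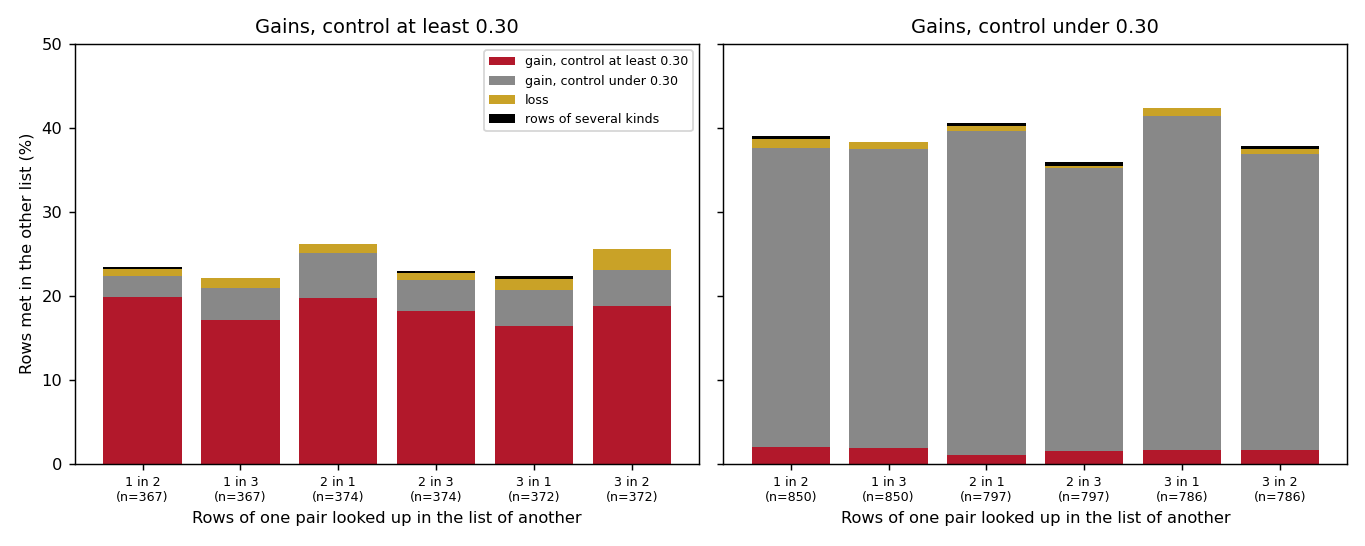
Percent of the gains of one pair (y axis) that overlapped a region of another pair's list, for members (left) and for gains from control levels under 0.30 (right); each bar looks the regions of one pair up in another list and is split by what was found there. Bars on the left end between 22.1% and 26.2%, those on the right between 35.9% and 42.4%.

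At 25 of the merged regions a member in one pair was a listed loss in another, and there the control libraries differed widely. The range of the listed control levels had a median of 0.196 at these 25 regions, against 0.0583 at the 181 regions that were listed in at least 2 pairs and higher in each. The overexpressing levels ranged by a median of 0.271 and 0.0506. Both groups of regions were formed from these levels, so the contrast is a description. RXRG, a retinoid X receptor gene, is an example picked after its values were seen (chr1:165445077-165445275): its control levels were 0.635, 0.778 and 0.378, and its levels after overexpression were 0.349, 0.468 and 0.766. Pairs 1 and 2 thus listed a loss and pair 3 a gain. At GRB10, an imprinted adaptor gene also picked afterwards (chr7:50783041-50783198), the level went from 0.429 to 0.659 in pair 1 and from 0.765 to 0.483 in pair 2. In both genes the highest and lowest listed control levels differed by more than the 2 libraries of any listed pair did, in RXRG only slightly. The overexpressing levels ranged more widely than the control levels in RXRG and less widely in GRB10.

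The 33 regions that met the rule in all 3 pairs gave repeated measurements of overlapping stretches, whose extent could differ between lists. At BCOR, for example, the 3 lists covered 15, 50 and 33 CpG cytosines. With an overlap of at least 50% of both regions required, 23 regions met the rule in all 3 pairs. Levels and SDs across pairs can therefore also hold differences of extent, which was not tested. Mean control levels lay between 0.322 and 0.715 with a median of 0.442, mean levels after overexpression between 0.570 and 0.883 with a median of 0.728, and mean differences between 0.168 and 0.369 with a median of 0.253. The SD between the 3 controls of a region had a median of 0.0275, and the SD between its 3 differences a median of 0.0338. In all 33, every overexpressing library was above every control library, which meeting the rule in 3 pairs favours but does not by itself require. By position, 21 of the 33 (63.6%) lay in a gene body, meaning within a gene but farther than 1 kb from either end, 7 were within 1 kb of a gene end and 5 were intergenic.

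The widest mean difference of the 33 was at ABHD2, a serine hydrolase gene, in a part of the gene that the long noncoding RNA gene CARMAL overlaps (chr15:89060251-89060387). Its 3 controls measured 0.384, 0.414 and 0.420 and its 3 overexpressing libraries 0.754, 0.765 and 0.805. The groups did not overlap, and the difference of 0.369 ± 0.0168 (SD, n = 3) had an SD below 0.0194, the lower quartile of that SD over the 33. WFS1, which encodes the endoplasmic reticulum protein wolframin (chr4:6277414-6277667), went from 0.335, 0.361 and 0.450 to 0.760, 0.746 and 0.676. Pair 3 was the least changed there, with the highest control and the lowest overexpressing level, and the region held 30, 30 and 15 CpG cytosines in the 3 lists. An intergenic region on chromosome 21 (chr21:45365419-45365601), 39564 bp from COL18A1, behaved alike, from 0.367, 0.349 and 0.463 to 0.731, 0.767 and 0.724. Its spread between differences, 0.0806 (SD, n = 3), and that of WFS1, 0.105, were the widest of the 33.

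Signalling and transcription genes were among the 12 widest differences. BAIAP2, a scaffold protein of the actin cytoskeleton with the promoter window inside the gene printed above (chr17:81083143-81083473), measured 0.511, 0.478 and 0.528 in controls and 0.849, 0.820 and 0.842 after overexpression. All 3 overexpressing libraries passed 0.80. Between STAT3 and STAT5A, neighbouring genes of transcription factors that act downstream of cytokine receptors, a region 213 bp from STAT3 (chr17:42312907-42313111) went from 0.331, 0.324 and 0.311 to 0.598, 0.703 and 0.621. SOCS3, a feedback inhibitor of JAK and STAT signalling, had a region of 77 bp at its gene end (chr17:78359518-78359594) that measured 0.504, 0.472 and 0.464 in controls. Its overexpressing libraries measured 0.771, 0.774 and 0.806, a difference of 0.303 ± 0.0381 (SD, n = 3). Levels within each group were close to each other in this region, which covered 13, 13 and 14 CpG cytosines. The SD of its differences was above 0.0338, the median of that SD over the 33.

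HDGFL2, a member of the HDGF family of histone-binding proteins (chr19:4474238-4474350), went from 0.408, 0.308 and 0.321 to 0.671, 0.642 and 0.648. Its first control library stood apart from the other 2, while its overexpressing libraries lay together. BCL9L and LRP5 belong to WNT signalling, as a coactivator of beta-catenin and as a co-receptor. BCL9L (chr11:118909271-118909505) went from 0.342, 0.363 and 0.369 to 0.688, 0.648 and 0.639. LRP5 (chr11:68374003-68374383) went from 0.437, 0.448 and 0.398 to 0.692, 0.720 and 0.735. In neither did the groups overlap. The 12 also held an intergenic region 32981 bp from TH (chr11:2204796-2204937), with a mean difference of 0.279, and the region at PRDM16 described with the developmental factors.

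The 4 smallest mean differences among the 33 were 0.168 to 0.193. GDA, which encodes guanine deaminase (chr9:72219171-72219328), had both the smallest difference and the highest control level, 0.708, 0.754 and 0.683, and reached 0.889, 0.885 and 0.874. THY1, a cell surface glycoprotein gene (chr11:119422611-119422790), went from 0.617, 0.580 and 0.599 to 0.833, 0.729 and 0.791. EMX1, a homeobox gene (chr2:72924553-72924707), ran from 0.454, 0.369 and 0.308 to 0.669, 0.552 and 0.489. In EMX1 the lowest overexpressing library was barely above the highest control, yet each pair had a difference of at least 0.181. The fourth was intergenic (chr20:50284800-50284940), 92110 bp from CEBPB, with a mean difference of 0.189 ± 0.0117 (SD, n = 3). After GDA, the highest mean control levels of the 33 were 0.630 at LINC01132, 0.615 at PITPNA, which LOC107984156 overlaps, and 0.599 at THY1.

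**Figure D4:**
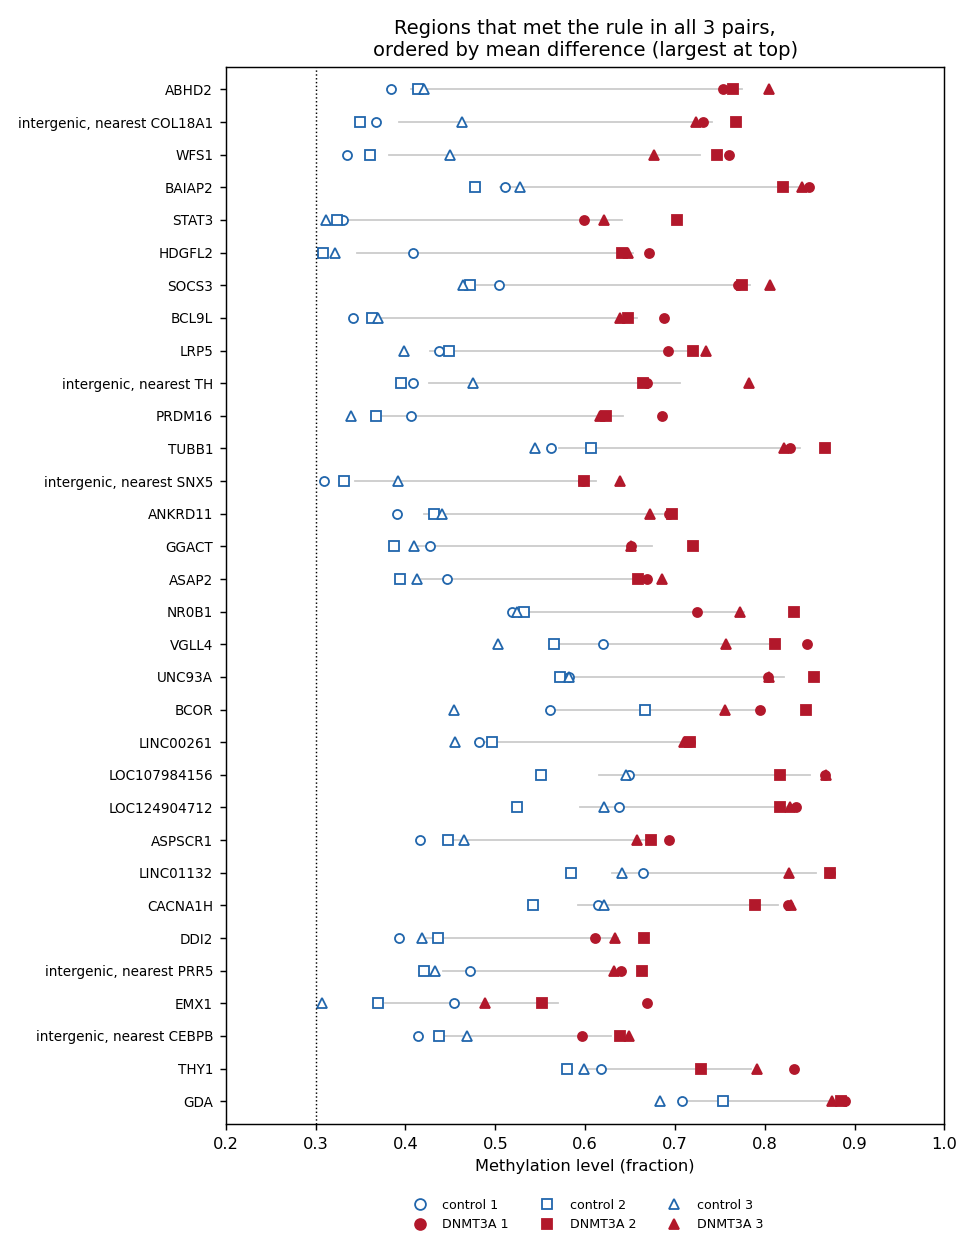
Methylation level (x axis, fraction) in each of the 6 libraries at 32 of the 33 regions that met the rule in all 3 pairs, ordered by mean difference; open blue symbols are controls, filled red symbols are DNMT3A-overexpressing libraries, the symbol shape gives the pair and grey lines join the group means. In every region drawn the 3 red symbols lie to the right of the 3 blue ones, with mean differences from 0.369 at ABHD2 to 0.168 at GDA.

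Members touched 799 annotated genes, taking every gene within 1 kb, of which 621 were protein-coding (3.10% of 20056), and 105 of these (0.524%) had a region with a member in at least 2 pairs. For 727 genes it was a single region. CACNA1H, the gene of a T-type calcium channel subunit, held the most, 14 distinct regions of which 4 had a member in more than 1 pair. Of these 4, the merged region chr16:1159673-1160703 also held gains from lower control levels, and its control levels averaged 0.262, 0.2225 and 0.318. The CACNA1H region at chr16:1177335-1177526 met the rule in all 3 pairs, from 0.614, 0.542 and 0.621 to 0.826, 0.789 and 0.829. PTPRN2, a receptor-type phosphatase-like protein of secretory vesicles, held 8, and NXN, a thioredoxin-family gene, held 5. For PTPRN2 the region at chr7:157561348-157561582 was the one with 2 member pairs, 0.343 and 0.333 in controls 2 and 3 against 0.699 and 0.570. GSE1 held 4, as did MIR200BHG, the host gene of miR-200b, miR-200a and miR-429. In MIR200BHG the region at chr1:1168878-1169097 reached the hairpin of miR-429 and went from 0.454 to 0.741 in pair 1 and from 0.40 to 0.715 in pair 3. LMF1 and MEGF6 also held 4 each.

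The gene lists give the shares of their genes with a member beside 3.10% of all protein-coding genes. Every list lay above that share, from 4.97% in G protein signalling to 16.2% in imprinted genes, with 8.57% in markers of other cell types. A share above 3.10% was therefore not particular to any list, and the lists were chosen with earlier results of these data known. Genes that RRBS could have measured are not given in the files, and long or CpG-rich genes offer more fragments, so the shares are a description and no list was tested. Of 58 hepatocyte function genes 3 had a member, and no single region of them had one in more than 1 pair. HAMP, the iron hormone hepcidin, went from 0.342 to 0.835 in pair 1 at chr19:35284301-35284360. The transcription factor gene HNF4A went from 0.717 to 0.868 in pair 1. ONECUT1, also a liver transcription factor gene, had 3 regions within a few kb, each in a different pair, from 0.449 to 0.751, 0.491 to 0.672 and 0.562 to 0.80. These single-pair gains have no replicate. Of 55 lipid and cholesterol genes 5 had a member. RXRA, the partner of many nuclear receptors, was the one with a region in 2 pairs (chr9:134365207-134365444), from 0.384 and 0.410 to 0.685 and 0.647.

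Of 237 developmental transcription factor genes 22 (9.28%) had a member, and in 5 of them the same region had one in at least 2 pairs, FOXK1, FOXB1, PRDM16, NFIC and GATA2. In the same list 34 genes (14.3%) had a gain from a lower control level and 17 (7.17%) had a loss, beside 4.88% and 2.38% of all protein-coding genes. PRDM16, a zinc finger regulator of brown fat and haematopoietic fate, held the region just upstream of the start of LOC105378604 (chr1:3323519-3323822). It went from 0.406, 0.368 and 0.340 to 0.685, 0.624 and 0.617, a difference of 0.271 ± 0.0128 (SD, n = 3). Library 1 was the highest and library 3 the lowest in both groups, and the difference stayed even. FOXK1, a forkhead factor (chr7:4741845-4742018), went from 0.591 and 0.456 to 0.859 and 0.893 in pairs 1 and 2. FOXB1, another forkhead factor (chr15:60004194-60004472), had control levels of 0.371, 0.0615 and 0.338 and levels of 0.643, 0.521 and 0.661 after overexpression. Its listed level in control 2 was the lowest, so pair 2 counted as a gain from a lower control level. The region of pair 2 began at 60004194, against 60004267 in pair 1 and 60004270 in pair 3. Whether the stretch or the library set that level was not tested. Single-pair members included SOX2, from 0.529 to 0.905 in pair 2, and MEIS2, from 0.388 to 0.841 in pair 3.

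Of 143 chromatin and DNA methylation enzyme genes 9 (6.29%) had a member, and in HDAC5 and KDM4B the same region had one in 2 pairs. HDAC5, a class II histone deacetylase (chr17:44087019-44087133), went from 0.473 and 0.528 to 0.714 and 0.843 in pairs 1 and 2. KDM4B, a histone H3 lysine demethylase (chr19:5048215-5048415), went from 0.377 and 0.343 to 0.609 and 0.575 in pairs 2 and 3. Their differences in the 2 listed pairs were alike in KDM4B and unlike in HDAC5. Imprinted genes are expressed from one parental allele, and their imprinting control elements carry methylation on one allele. Of 37 such genes 6 (16.2%) had a member and 9 (24.3%) had a loss, beside 3.10% and 2.38% of all protein-coding genes. KCNQ1, a potassium channel gene in an imprinted domain, had a region in 2 pairs (chr11:2725246-2725377), from 0.465 and 0.343 to 0.781 and 0.632 in pairs 2 and 3. In pair 2 a region shared by PEG3 and ZIM2 (chr19:56838454-56838714) went from 0.324 to 0.875, and one at DLK1 went from 0.302 to 0.681.

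Among 42 genes known for methylation in cancers 4 had a member, SOCS3 in all 3 pairs, SEPTIN9 at a different region in each of pairs 2 and 3, and GSTM1 and TP73 in 1 pair each. Of 76 WNT pathway genes 4 had a member. Besides LRP5, the transcription factor gene TCF7 (chr5:134115921-134116047) had a region with members in 2 pairs, from 0.523 and 0.602 to 0.811 and 0.826. AXIN1, a scaffold of the beta-catenin destruction complex, went from 0.688 to 0.917 in pair 3. Among 70 receptor tyrosine kinase and ligand genes 4 had a member, EPHB1, FGFR3, IGF1R and EFNB2, each in 1 pair. Of 161 G protein signalling genes 8 had a member, and GNA11, a G protein alpha subunit, was the one with a single region that had members in 2 pairs. Its region of 1037 bp (chr19:3096759-3097795) measured 0.191, 0.303 and 0.335 in controls and 0.438, 0.643 and 0.663 after overexpression. The first pair started lower and ended lower, and counted as a gain from a lower control level.

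Of 239 ion channel genes 17 (7.11%) had a member, and in CACNA1H, KCNQ1, PIEZO1 and GABRA2 the same merged region had one in at least 2 pairs. The widest such difference in the list was at a second CACNA1H region (chr16:1181369-1181444), from 0.338 and 0.423 to 0.754 and 0.689 in pairs 2 and 3. PIEZO1, a mechanically gated cation channel, had a merged region near the threshold (chr16:88770700-88771314). It measured 0.320, 0.284 and 0.335 in controls and 0.60, 0.632 and 0.612 after overexpression. In pairs 1 and 3 these values average members with gains from lower control levels. Merging alone does not show that the members of these 2 pairs overlap. Of 276 extracellular matrix and adhesion genes 27 had a member, but 20 of the 27 are gamma protocadherin genes that share 1 region, so the 27 genes rest on 9 regions. ADAMTSL2, a matrix glycoprotein gene (chr9:133558985-133559066), had the widest mean difference of all list genes whose region recurred, from 0.354 and 0.492 to 0.827 and 0.919 in pairs 1 and 3. ADAMTS12, with the promoter stretch printed above (chr5:33892138-33892208), went from 0.601 and 0.364 to 0.867 and 0.587 in the same pairs. Its pair 3 ended below where pair 1 had begun, so the groups overlapped there.

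Of 437 solute carrier and ABC transporter genes 24 (5.49%) had a member, and in 7 of them the same region had one in 2 pairs. SLC37A2, a sugar phosphate exchanger (chr11:125081319-125081519), went from 0.365 and 0.367 to 0.738 and 0.758 in pairs 1 and 2. SLC45A3 (chr1:205664616-205664810) went from 0.447 and 0.471 to 0.803 and 0.718 in the same pairs. SLC22A11, an organic anion transporter (chr11:64567273-64567492), went from 0.499 and 0.454 to 0.814 and 0.729 in pairs 2 and 3. In all 3 genes both overexpressing libraries were above both controls. Of 35 marker genes of other liver and blood cell types 3 had a member, VWF, STAB1 and SOX9, each in 1 pair; methylation at these genes does not show whether such cells were present.

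Beyond their levels, members had more listed CpG cytosines per 100 bp than gains from lower control levels in each list. The listed number can miss cytosines of the sequence, so these values do not measure CpG packing alone. What coverage contributes to the differences was not tested. Median density was 11.9, 11.7 and 12 CpG cytosines per 100 bp in members of pairs 1, 2 and 3 and 10.2, 10.3 and 10.3 in the other gains. The difference was 1.59 ± 0.192 (SD, n = 3 pairs; exact two-sided sign-flip permutation test, p = 0.25, the smallest possible; adjusted p = 0.438). Members also had 12, 13 and 13 CpG cytosines per region against 11, 11 and 11, a difference of 1.67 ± 0.577 (exact test, p = 0.25, adjusted p = 0.438). That difference was 0.604 ± 0.740 with means in place of medians and 0.50 among regions with at least 6 CpG cytosines. Median lengths of members, 97, 104 and 103 bp, differed from 107, 105 and 102 bp by -3.33 ± 5.86 bp (exact test, p = 0.75, adjusted p = 0.875). With means in place of medians the length difference was -26.8 ± 23.6 bp. Over intervals of the control level, median density was 10.8 per 100 bp in gains below 0.1, 10.1 at 0.1 to 0.2, 10.2 at 0.2 to 0.3, 10.8 at 0.3 to 0.4 and 16.0 above 0.7. At least 10 CpG cytosines per 100 bp were found in 736 members (66.1%), in 53.6% of the other gains and in 63.7% of the losses. Losses had a pooled median density of 12.8 per 100 bp, above the 11.8 of members.

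By position along genes, members and other gains differed by less than the spread between pairs. Of the 1113 members 657 were in a gene body, 229 within 1 kb of a gene end, 226 intergenic and 1 on an unplaced sequence. The gene body share was 59.0% ± 3.33 of members and 58.2% ± 0.567 of the other gains (SD, n = 3 pairs). Their difference of 0.778 ± 3.90 percentage points had opposite signs in different pairs (exact two-sided sign-flip permutation test, p = 1, adjusted p = 1). The gene end share was 20.6% ± 3.59 and 22.2% ± 0.873, a difference of -1.64 ± 3.20 percentage points (n = 3; exact test, p = 0.75, adjusted p = 0.875). With a control level of at least 0.40 as the rule, the gene body difference was 4.59 ± 3.42 and the gene end difference -4.08 ± 2.98 percentage points (n = 3; exact test, p = 0.25 and adjusted p = 0.292 for both), each larger than its spread. Losses, for comparison, were in a gene body in 39.7% of regions.

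Members met a promoter window somewhat more often than the other gains in each list, in 5.67%, 6.72% and 8.08% against 5.13%, 5.89% and 4.37%, leaving out chromosome 8, for which the promoter table has no windows. The difference of 1.69 ± 1.75 percentage points (SD, n = 3 pairs; exact two-sided sign-flip permutation test, p = 0.25, adjusted p = 0.438) was about as large as its spread, and this comparison was added after the data were seen. It was 0.682 without pair 3 and 0.388 with a control level of at least 0.40. The 73 members concerned met 65 windows. A met window held a median of 28 CpGs against 14 in all 35116 windows of 300 bp, and the MspI site CCGG, which reads the same on both strands, was in 100% of met windows and 63.1% of all windows. Of 106 member edges that fell inside a window 48 (45.3%) lay in a CCGG. RRBS fragments end at this site. Met windows were compared only with all windows, and what the reach of the assay contributes to these contrasts was not tested.

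**Figure D5:**
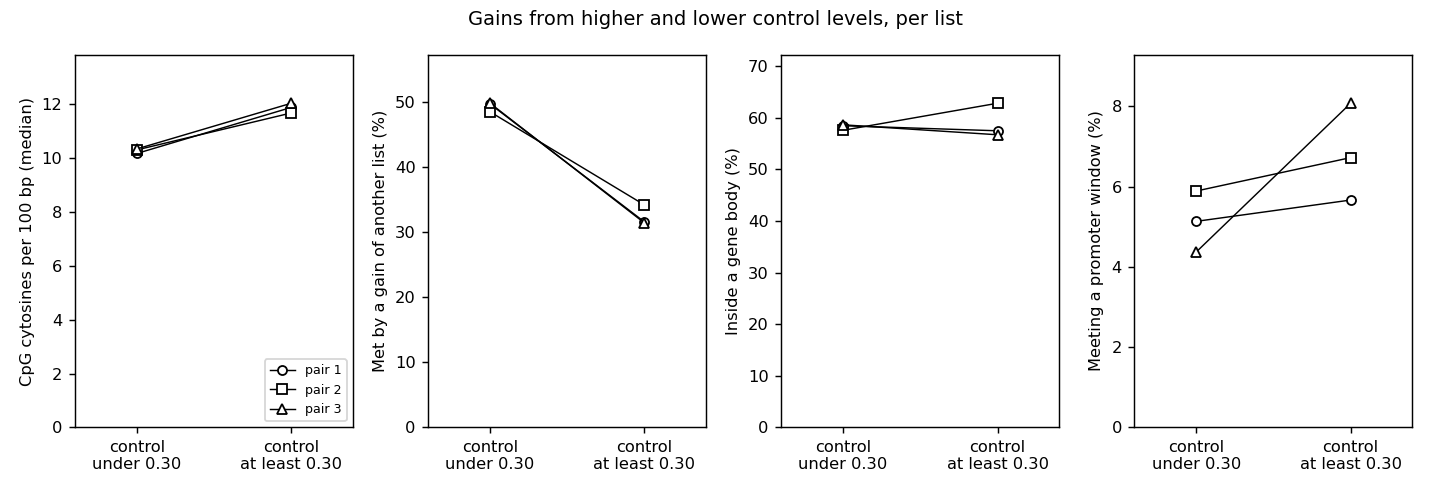
CpG cytosines per 100 bp (median), percent of regions met by a gain of another list, percent inside a gene body and percent meeting a promoter window (y axes, from left to right), for gains from control levels under 0.30 and of at least 0.30 in each pair; lines join the values of 1 list. All 3 lines rise for density, from 10.2 to 10.3 up to 11.7 to 12, all 3 fall for regions met in another list, and those for the gene body share cross.

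Library depth was even across the series. Total reads per library lay between 33512387 and 39245256, the mapping rate between 75.96% and 76.88% and the MspI cutting efficiency between 99.61% and 99.66%. The reads behind a single region are not in the lists, so no interval for counting error could be given for any level above.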

How the data were processed

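The members and the gene lists were chosen with earlier results of these data known. Per the labels' protocols, DNA with a lambda spike-in was cut with MspI and treated with bisulfite. Reads were placed on hg38, per the submitters' processing notes, while the sources used here name no aligner, region caller or threshold. Per the file headers, the authors gave each region's mean methylation level in both libraries as a fraction from 0 to 1. They also gave counts of its CpGs and its length in bp, and the deposited difference and area statistic are scores of the authors. The deposited mapping summary holds read counts and percent values per library. Listed differences were chosen by size from the same reads that measured them.

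From these files, regions of different lists were merged where they overlapped by at least 1 bp, and several regions of 1 list were averaged with CpG counts as weights. Genes within 1000 bp and position classes came from the RefSeq gene table of GRCh38.p14 (20056 protein-coding and 18330 long noncoding RNA genes), which gives gene extents without exons. Promoter sequences came from RefSeq in the same build. Each tested value exists once per list for members and once for the other gains, and each list compares 2 libraries of 1 number, so the pair was the replicate block (n = 3). The merging of regions and the count of members were checked on simulated regions. The exact sign-flip permutation test over pairs was checked only on short fixed sets of values with a known p-value. Benjamini-Hochberg adjustment ran over 7 differences. With 3 pairs the sign-flip p-value was 0.25 wherever the differences shared a sign, whatever their spread, so it does not measure that spread. Variation between these pairs may be technical. Named regions were, by rule, the 12 widest and 4 smallest mean differences and the 4 highest control levels among regions with members in all 3 pairs, the extremes of each pair, those nearest the threshold, up to 3 genes per list with a region that had members in at least 2 pairs, and the 5 genes with most regions; others were picked after their values were seen. Of the named regions 1 is not reported here. Python 3.11.15, pandas 2.3.3 and numpy 2.4.6 were used. Depth was 25764323 to 29924507 mapped reads per library, and the depth of a region is unknown. Alternatives changed the control threshold, the call threshold, windows, overlap, averaging, the block and the pairs used.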

Additional observations from a re-analysis of the deposited data

How the results depend on the processing

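Differences between members and other gains kept their direction and missed the 0.05 threshold under every alternative run for CpG cytosines per region, density, the share met in another list and promoter windows; none of these designs can reach it, and the region length difference was 0 without replicate 1. The exceptions were the position shares. The gene body difference was -0.0301 percentage points with regions differing by at least 0.20, and ranged from -1.45 to 2.13 with each pair left out. The gene end difference ranged from -3.18 to 0.0156. With a control level of at least 0.40 they were 4.59 and -4.08. Sizes moved too: the CpG cytosine difference fell to 0.604 with means and 0.50 with at least 6 CpG cytosines, and the promoter window difference to 0.682 without replicate 3. Without the replicate block, an exact permutation of the 6 values gave p = 0.1, the smallest it allows, and an adjusted p of 0.233 for CpG cytosines, density and the share met, with values of 1.67, 1.59 and -17.0; the pairing changed no call.

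A control level of at least 0.25 gave a median difference of 0.270, a median control level of 0.392 and a median 49.0% of the remainder. With at least 0.40 these were 0.251, 0.498 and 54.7%, for 667 members in 580 merged regions, 18 of them in all 3 pairs. With differences of at least 0.20 they were 0.282, 0.420 and 53.3%. Using 2 pairs, members numbered 739 to 746 and regions with a member in both 62 to 74. The order of these counts follows from the rule. With an overlap of at least 50% of both regions, 23 regions had a member in all 3 pairs. Of 107 recomputed differences of 18 named regions, 2 moved by over 1 SD, and the lowest was 0.156. None reversed, but none could, since the rule had chosen these regions as higher in all 3 pairs. Averaging without weights could change none of them, as each had 1 region per list.

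The lists give no depth per region, so thinly covered regions could not be set aside.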
